A study of Drosophila melanogaster with 12 samples.

Results

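The samples described here are the 4 arrays on which RNA of cut wing imaginal discs at 72 hours after implantation was hybridized against RNA of cut discs at 24 hours, a comparison called C24→C72. They were chosen by their titles and make up 4 of the 12 arrays of the series. Wing imaginal discs are the larval epithelial sacs that give rise to the adult wing and the dorsal thorax. When a disc fragment is cultured in the abdomen of an adult female, the wound edges close first, with the help of the Jun N-terminal kinase (JNK) pathway, and cells near the healed wound then divide and replace the missing tissue. The window from 24 to 72 hours lies after the early wound response and takes in the growth of the regenerate.

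Discs came from larvae of the third instar of the w1118ISO; 2iso; 3iso isogenic line of the DrosDel collection, which the labels spell w118iso, and the hosts were Canton S females soon after eclosion. In the cut discs (C) a sector of the posterior compartment had been removed, which leaves a mostly anterior fragment, whereas the uncut discs (NC) were implanted whole. The other 8 arrays hold cut discs at 24 against 0 hours (C0→C24) and uncut discs at 24 against 0 hours (NC0→NC24), with 4 arrays each. Each comparison has 2 biological replicates, and the amplified RNA of each replicate was hybridized a second time with the dyes swapped. No uncut discs at 72 hours were analysed here, so that in C24→C72 the effect of the cut and that of a longer stay in the host cannot be told apart. The 24-hour RNA of cut discs also served in C0→C24, where it is the later sample and in C24→C72 the earlier one. For this reason C0→C24 is set beside C24→C72 as values only. NC0→NC24 shares no RNA with C24→C72.

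The deposited values are log2 ratios, and they hold no levels, so the labelled tissue could not be checked against its defining markers. Every change below is a log2 ratio, positive where the later time point was higher. Of 12058 genes tested, 164 (1.36%) rose and 190 (1.58%) fell from 24 to 72 hours, where a call asked for an adjusted p (Benjamini-Hochberg) under 0.05 in limma and a change of at least 1.5-fold. At 2-fold these numbers were 24 and 43. Most changes were small. The SD of the change over all genes was 0.26 in C24→C72, against 0.43 in C0→C24 and 0.37 in NC0→NC24. Of the 354 called genes (2.94%), 346 had the same sign on all 4 arrays, as had 28.2% of all genes. The calls rest on the mean of these same arrays, which favours a shared sign, so the count is no independent evidence. In C0→C24, 6.12% of all genes rose and 4.94% fell, and in NC0→NC24 5.14% and 3.85%.

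The test leans on the other comparisons. The 6 replicate means of the 3 comparisons entered a single fit, which estimates a common spread for each gene. Given a variance for each comparison, C24→C72 had a weight of 0.69, against 1.21 in C0→C24 and 1.19 in NC0→NC24. A lower weight stands for a larger spread, so the common spread is on the small side for C24→C72. That weighted fit called 146 genes higher and 169 lower. When C24→C72 was fitted alone on its 2 replicate means, 27 genes (0.224%) were called, 7 higher and 20 lower, and each of these was also called in the shared fit. With its 4 arrays as the unit, which counts dye-swapped arrays of the same RNA as independent, the fit of C24→C72 alone called 145 higher and 170 lower, and with a dye term 149 and 184. Leaving out replicate 1 of C24→C72 gave 292 genes higher and 206 lower, and leaving out replicate 2 gave 254 and 216, with the remaining replicate assumed to vary as the other comparisons do. The dye-swapped arrays of replicate 2 correlated less than the biological replicates of either dye order. Those of replicate 1 correlated less than the replicates in Cy5 and slightly more than those in Cy3. Across genes, which are not independent replicates, r was 0.44 between the dye-swapped arrays of replicate 1 and 0.20 for replicate 2, whereas it was 0.56 between the replicates with the 72-hour sample in Cy5 and 0.41 with it in Cy3. After averaging the dye orders, the replicates correlated with r = 0.53. The scatter of replicates and dye orders shows where the called genes lie.

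**Figure D1:**
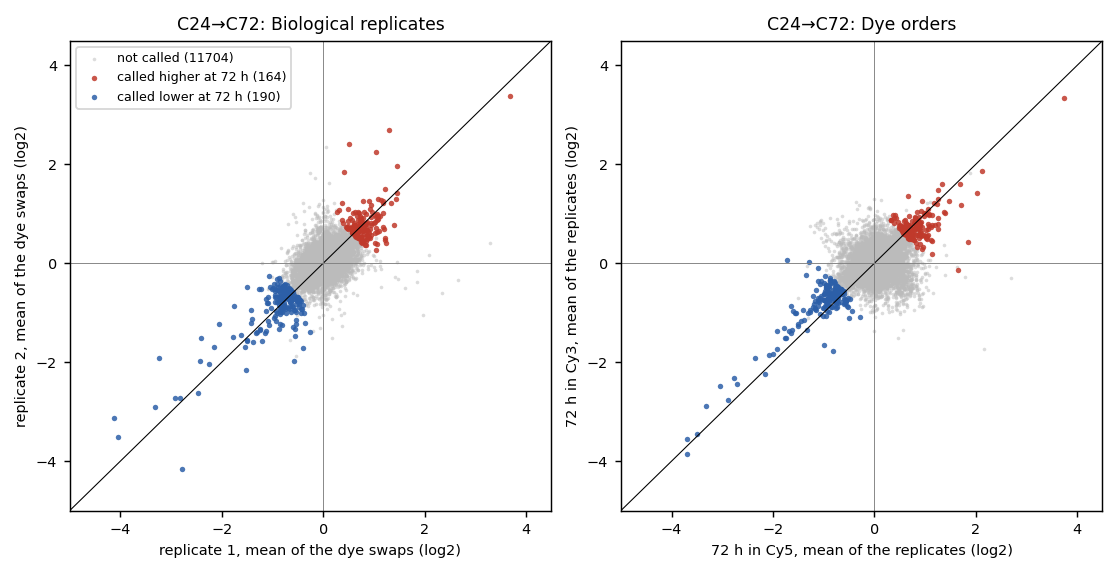
Log2 ratios (72 h over 24 h) of 12058 genes in C24→C72. The left panel sets replicate 1 (x axis) against replicate 2 (y axis), each the mean of its dye-swapped arrays, and the right panel sets the mean of the arrays with the 72-hour sample in Cy5 (x axis) against that with it in Cy3 (y axis). The 164 genes called higher (red) and the 190 called lower (blue) lie along the diagonal in both panels, and the genes not called (grey) form a round cloud about 0 in the right panel.

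The largest falls included those of several cuticle protein genes. Cuticle proteins bind chitin in the extracellular armour that epidermis and late discs secrete, and *Edg78E*, *Edg84A* and *Edg91* belong to the genes that discs switch on for the pupal cuticle after an ecdysone pulse. Of 112 measured cuticle protein genes, 15 fell and 3 rose, which is 16.1% against 2.94% of all genes. Their median change was -0.04, beside 0.03 for all genes, so most of the family moved little. *Edg78E* gave -4.19 and -3.92 on the arrays of replicate 1 and -3.20 and -3.81 on those of replicate 2. All 4 ratios were far below 0, and the gene fell 13.7-fold (-3.78 ± 0.21, SE from the shared fit, n = 2 replicates, adjusted p = 7.4e-05). The ratios of *Cpr65Ec* were -4.52, -3.73, -2.89 and -3.36 in the same order, with a mean of -3.62 ± 0.21. The fall was steeper in replicate 1 than in replicate 2. *Edg84A* gave -3.16, -2.67, -2.61 and -2.84, which is a 7.06-fold fall and varied by little between the arrays. *Cpr72Eb* fell by 3.50 and 2.99 in replicate 1 and by 1.93 and 1.90 in replicate 2. The dye orders agree within each replicate of this gene, and the replicates differ by more than the dye orders. *Lcp65Ad* (-1.96), *Edg91* (-1.39) and *Cpr50Cb* (-1.34) also fell. In bulk RNA of this kind, fewer cells of a type and less RNA per cell cannot be told apart.

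These genes had risen before 24 hours. In uncut discs the change from 0 to 24 hours was 2.47 for *Edg78E*, 2.88 for *Edg84A*, 3.10 for *Cpr72Eb* and 1.92 for *Lcp65Ad*, and in cut discs 2.72, 3.16, 3.12 and 2.59. *Cpr65Ec* had risen by 0.97 in uncut and 0.91 in cut discs before it fell by 3.62. The difference between C24→C72 and NC0→NC24 was -4.60 for this gene (adjusted p = 0.0001). *Cpr76Bc*, *Lcp65Ag3* and *Cpr57A* were the cuticle genes that rose. The 4 ratios of *Cpr76Bc* lay between 1.15 and 1.26, all well above 0 and close together, and the gene rose 2.33-fold (1.22 ± 0.08, adjusted p = 0.00019), after 0.14 in uncut and 0.36 in cut discs over the first day. *Lcp65Ag3* gave 0.23 and 0.81 in replicate 1 and 2.44 and 2.39 in replicate 2. Its rise (1.47, adjusted p = 0.03) thus came mainly from replicate 2, and at 0.52 without that replicate it missed the threshold. Its neighbouring copy *Lcp65Ag2*, with which it may share hybridization signal, had a ratio of -0.18 (adjusted p = 0.74).

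Genes that build and tan the cuticle moved in both directions. Among 39 genes of chitin synthesis and remodelling, 3 fell and 1 rose, a share of 10.3% against 2.94% of all genes. *serp*, a chitin deacetylase, gave -2.43, -1.69, -1.40 and -1.05, and fell 3.12-fold (-1.64 ± 0.17, adjusted p = 0.0014). The other chitin deacetylase of its kind, *verm*, had -0.54 (adjusted p = 0.0095) and missed the fold threshold. *Gasp*, which encodes a chitin-binding protein of trachea and cuticle, fell by 0.68, and *Idgf4*, a chitinase-like growth factor, by 0.62. *mmy*, the pyrophosphorylase that makes the activated sugar for chitin and glycoproteins, rose by 0.80 (adjusted p = 0.0071) and had also risen in the first day, by 1.58 in uncut discs. In pigment and tanning, *ple*, the tyrosine hydroxylase that starts dopamine synthesis, fell by 1.27, and *e*, which conjugates dopamine with beta-alanine, fell by 0.86 (adjusted p = 0.00096). The Osiris and Yellow families were listed together with *e* and other pigment genes. Of the 39 measured, *Osi14* (-0.81) fell beside *e*, and *Osi3* rose (0.80, adjusted p = 0.023), a share of 7.69% against 2.94% of all genes. *Osi3* gave 0.54 and 0.22 in replicate 1 and 1.70 and 0.74 in replicate 2, and its call was lost, at 0.38, without replicate 2.

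**Figure D2:**
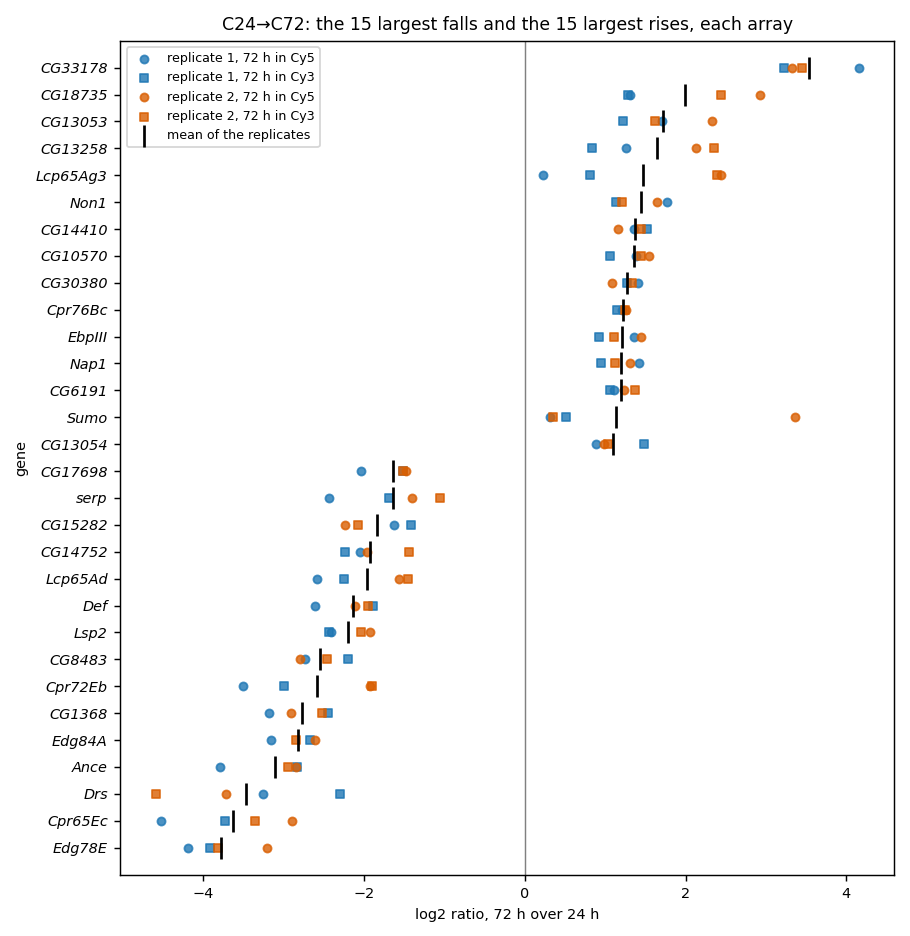
Log2 ratio (72 h over 24 h, x axis) on each of the 4 arrays of C24→C72 for the 15 called genes with the largest fall and the 15 with the largest rise (y axis), among genes with the same sign on every array. Colours mark the replicate, shapes the dye of the 72-hour sample, and the vertical tick is the mean of the 2 replicates. For *Sumo* a single array at 3.36 stands away from 3 arrays between 0.32 and 0.51, and for *Lcp65Ag3* the replicates lie apart.

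Among genes of the humoral immune defence, several antimicrobial peptide genes were lower at 72 hours. Antimicrobial peptides are small secreted proteins, made mainly by the fat body and also by epithelia under control of the Toll and Imd pathways. Of 23 measured genes for antimicrobial peptides and Bomanins, 8 (34.8%) fell and none rose, against 1.58% of all genes lower, and their median change was -0.21, with 8 of the 23 above 0. The medians were -0.11 in replicate 1 and -0.50 in replicate 2. *Drs*, the antifungal peptide drosomycin, gave -3.26 and -2.30 in replicate 1 and -3.72 and -4.59 in replicate 2, which is an 11.1-fold fall (-3.47 ± 0.46, adjusted p = 0.0039). No array came near 0, but the arrays spread over more than 2 log2 units. *Def*, the peptide defensin, was more even, with -2.61, -1.89, -2.11 and -1.95 (-2.14 ± 0.11, adjusted p = 6.5e-05). *AttB* fell by 1.37, *Mtk* by 1.29 and *AttD* by 0.78. Over the first day *Drs* had changed by 5.43 in uncut and 4.88 in cut discs, the largest rise among these peptides, and *Def* by 2.19 and 2.15. Compared with *Drs* in NC0→NC24, its change in C24→C72 was lower by 8.90 (adjusted p = 0.00019).

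Of 33 measured recognition and signalling genes, which act upstream of the peptides, 2 (6.06%) rose and none fell, against 1.36% of all genes higher. *PGRP-LF*, a membrane-bound inhibitor of the Imd pathway, gave 0.83, 0.95, 0.49 and 0.59 and rose by 0.71 (adjusted p = 0.0073). *Diap2*, a ubiquitin ligase of the Imd pathway and an inhibitor of apoptosis, gave 0.99, 0.76, 0.68 and 0.66 and rose by 0.77 (adjusted p = 0.0042). It had already risen by 1.63 in uncut and 1.45 in cut discs over the first day. The iron-binding proteins *Tsf1* and *Fer2LCH* fell by 0.81 and 0.64, after a rise of 1.11 and 1.16 in uncut discs. The probes of *Tsf1* disagreed, with -1.58 for one and -0.04 for the other.

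Markers of other cells that a piece of disc could carry were listed by cell type. Among 17 fat body genes 3 (17.6%) fell, *Lsp2*, *Fbp2* and *Tsf1*, and none rose, against 1.58% of all genes lower. *Lsp2*, a larval serum storage protein, gave -2.41, -2.44, -1.92 and -2.03 and fell 4.59-fold (-2.20 ± 0.37, adjusted p = 0.0091). Over the first day *Lsp2* rose by 1.97 in cut discs and had a mean of -0.39 in uncut discs. The uncut replicates differed in sign, at -1.415 and 0.635. *Fbp2* gave between -0.88 and -0.69. The whole fat body list had array medians from -0.24 to 0.06, and 8 of its 17 genes were above 0, among them the yolk protein genes *Yp1*, *Yp2* and *Yp3*. *Yp3*, expressed by the adult female fat body and ovary, gave 4.09 and 2.51 in replicate 1 and -0.31 and 1.15 in replicate 2, and missed the threshold (1.86 ± 0.50, adjusted p = 0.053). *Yp1* gave 2.09 and 2.10 in replicate 1 and -0.02 and 0.35 in replicate 2 (adjusted p = 0.077). For both genes the arrays of replicate 1 lay above those of replicate 2. The part of fat body RNA in the falls of the peptides and storage proteins was not tested.

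Among 24 hemocyte markers, 1 rose and 1 fell (8.33%, against 2.94% of all genes), and the array medians lay between 0.02 and 0.11. The riser was *PPO2*, the prophenoloxidase of crystal cells, with 1.07, 1.31, 0.87 and 0.60 (0.96 ± 0.12, adjusted p = 0.0034) and no call in either first-day comparison. *PPO1* had 0.47 (adjusted p = 0.041) and missed the fold threshold. *crq*, a scavenger receptor of macrophages, gave -0.33 (adjusted p = 0.07). The medians of 23 muscle genes ranged from 0.06 to 0.23 over the arrays. Among them 1 gene was lower, *Act79B* (-0.80), a share of 4.35% against 1.58% of all genes lower. Of 14 genes of myoblasts and trachea only *Gasp* fell (7.14%). Of 17 neuron markers 1 (5.88%) rose, *Appl* (0.61), against 1.36% of all genes higher. Of 17 genes of the female germline and eggshell 2 (11.8%) rose, *Fcp3C* (0.69) and *Vm34Ca* (0.63). None of 45 gut enzyme genes was called by limma, and 10 had an unadjusted p under 0.05.

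Some wound response genes fell as well. Of 19 measured genes known as JNK targets or as part of epidermal wound repair, 5 fell and 1 rose, a share of 31.6% against 2.94% of all genes, and their median change was -0.15. *Gadd45*, a stress-induced activator of the JNK pathway, gave -1.31, -0.94, -1.96 and -0.77 and fell 2.37-fold (-1.25 ± 0.17, adjusted p = 0.0047). *ple* gave -0.79 and -0.36 in replicate 1 and -2.31 and -1.64 in replicate 2, so that its fall (adjusted p = 0.019) was deeper in replicate 2. *Ets21C*, an ETS transcription factor induced by JNK, behaved alike, with -0.41 and -0.32 against -1.55 and -0.87 (-0.79, adjusted p = 0.027). Both fell below 1.5-fold, at -0.58 and -0.37, when replicate 2 was left out. *scyl*, a hypoxia-inducible inhibitor of TOR signalling, was even over the arrays (-0.86, -0.77, -1.05 and -0.94, adjusted p = 0.01). *Col4a1*, a collagen IV chain of the basement membrane, fell by 0.75 (adjusted p = 0.018). The second collagen IV chain, *vkg*, gave -0.44 (adjusted p = 0.019) and the lysyl hydroxylase *Plod* -0.44 (adjusted p = 0.022), both short of the fold threshold.

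Over the first day 9 of the 19 genes were called higher and 1 lower in cut discs (C0→C24), and 7 higher with none lower in uncut discs (NC0→NC24). The shares of all genes were 6.12% higher and 4.94% lower in C0→C24, and 5.14% and 3.85% in NC0→NC24. In these comparisons *Gadd45* rose by 2.02 and 1.08, *ple* by 1.43 and 0.91, *Col4a1* by 1.92 and 1.04, and *scyl* by 0.89 and 0.67. *Ets21C* rose in cut discs (0.88) and had 0.45 in uncut discs (adjusted p = 0.11), where *vkg* (0.52) and *Plod* (0.27) were not called either. The riser of this group was *crc*, the fly ATF4 transcription factor of the stress response, with 0.96, 0.52, 0.81 and 0.51 (0.70 ± 0.10, adjusted p = 0.0044), which had also risen by 0.87 and 0.69 in the first day. *puc*, the phosphatase that reports and restrains JNK activity, gave -0.12 (adjusted p = 0.63). *cbt*, a transcription factor of the wound response, gave -1.01 and -1.02 in replicate 1 and 0.20 and -0.13 in replicate 2. Its replicates did not overlap, and the mean of -0.49 missed the threshold (adjusted p = 0.18). None of 15 genes of the JNK cascade was called, and 1 had an unadjusted p under 0.05. *ena*, an actin filament elongation factor, fell by 0.64 (adjusted p = 0.0095). *tld* and *tok*, neighbouring genes for proteases that free Dpp family ligands from their inhibitor, fell by 0.81 and 0.87, and had also fallen before, by 0.98 and 1.18 in uncut discs.

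**Figure D3:**
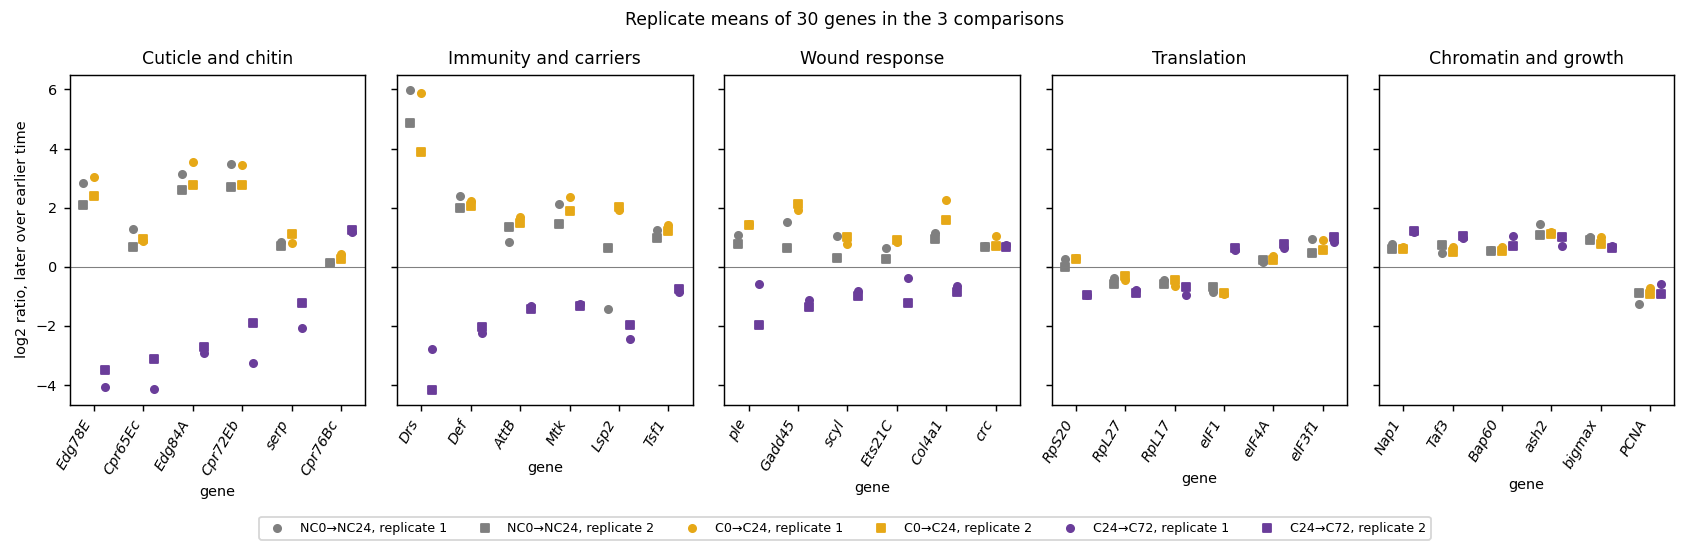
Log2 ratios (later over earlier time, y axis) of 30 genes (x axis) in the 3 comparisons, as the mean of the dye-swapped arrays of each biological replicate (circles for replicate 1, squares for replicate 2). NC0→NC24 is grey, C0→C24 yellow and C24→C72 purple. *Drs* lies at 5.43 and 4.88 on average in the first-day comparisons and at -3.47 in C24→C72, whereas *Nap1*, *Taf3* and *ash2* lie above 0 in all 3. C0→C24 and C24→C72 share the 24-hour RNA of cut discs with opposite sign.

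Of 39 measured genes for cytosolic ribosomal proteins, the protein subunits of the ribosome, 9 fell and 1 rose (25.6% against 2.94% of all genes), with a median of -0.28 (-0.36 in replicate 1 and -0.16 in replicate 2). *RpS20* gave -1.06, -0.82, -0.92 and -0.99 and fell by 0.95 (adjusted p = 0.00096). *RpL27* gave -0.91, -0.64, -0.96 and -0.80 and fell by 0.83 (adjusted p = 0.0018). *RpL17* (-0.82) was measured by 2 probes at -1.17 and -0.47. In *RpS27A* the dye orders differed more than the replicates, with -0.34 and -0.67 for the arrays with the 72-hour sample in Cy5 and -1.01 and -1.19 in Cy3. The riser was the related gene *RpL24-like* (0.83, adjusted p = 0.013), named after its values were seen, which acts in ribosome assembly in yeast and not as a subunit. In uncut discs the median of the ribosomal list over the first day was 0.09, so the shift of the list below 0 was not seen there. Of the fallers named here, *RpL27* (-0.48), *RpL17* (-0.51) and *RpS27A* (-0.485) already lay below 0 in uncut discs, short of the fold threshold. *RpS20* had 0.135 there. None of 69 mitochondrial ribosomal proteins was called in C24→C72, where 20 had an unadjusted p under 0.05.

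Among translation factors more genes rose than fell. Of 47 translation factors 5 rose and 1 fell, a share of 12.8% against 2.94% of all genes. *eIF3f1*, *eIF3l* and *eIF3a* encode subunits of eIF3, the complex that brings the small ribosomal subunit to mRNA, and rose by 0.93, 0.72 and 0.70. *eIF3f1* gave 1.07, 0.64, 1.17 and 0.83 over the arrays (adjusted p = 0.0047). *eIF4A*, the helicase that unwinds the mRNA leader, was printed 17 times on the array, and every one of its probes gave between 0.64 and 0.76. *eIF1*, which guards the choice of the start codon, gave 0.64, 0.49, 0.57 and 0.71 (0.60, adjusted p = 0.0044), after it had fallen by 0.76 in uncut and 0.91 in cut discs. The factor that fell was *eIF3b* (-0.86, adjusted p = 0.024), also named after its values were seen, with 2 probes at -0.55 and -1.17. *Non1*, a nucleolar GTP-binding protein needed for the large ribosomal subunit, rose 2.72-fold, with 1.77, 1.14, 1.65 and 1.21 (1.44 ± 0.13, adjusted p = 0.00092). It was the only called gene of 31 in nucleolar ribosome assembly, a share of 3.23%, near the 2.94% of all genes. *Nop56*, of the same list, gave -0.42 (adjusted p = 0.033).

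The genes that rose included chromatin regulators and transcription factors. *Nap1*, a histone chaperone that brings histones H2A and H2B to nucleosomes, gave 1.42, 0.95, 1.31 and 1.12, a 2.30-fold rise (1.20 ± 0.08, adjusted p = 0.00019), and it was called under every alternative that was run. *Taf3*, a subunit of the general factor TFIID, gave 1.03, 0.90, 0.92 and 1.14 (0.998 ± 0.10, adjusted p = 0.001). *ash2*, a trithorax group member of the complexes that methylate histone H3 at lysine 4, gave 0.82, 0.61, 0.92 and 1.11 (0.86, adjusted p = 0.0039). These were the 3 risers in a list of trithorax group genes and histone modifiers that also holds histone chaperones and *Taf3*. None of its 33 measured genes fell, and the share called was 9.09%, against 2.94% of all genes. *Bap60*, a subunit of the Brahma nucleosome remodelling complex, rose with 1.17, 0.91, 0.67 and 0.76 (0.88, adjusted p = 0.0019). It was the only gene called among 8 measured subunits (12.5%, against 2.94% of all genes). *HDAC1*, a histone deacetylase, had -0.45 (adjusted p = 0.015) and missed the fold threshold. None of 15 Polycomb group genes was called, with 2 at an unadjusted p under 0.05. *U2af50*, which recognizes the end of introns in splicing, rose by 1.01 (adjusted p = 0.0025). It was the only call of 38 splicing and RNA processing genes, a share of 2.63%, near the 2.94% of all genes. In uncut discs in the first day *ash2* had risen by 1.26, *Nap1* by 0.68 and *Taf3* by 0.61. *Bap60* had 0.55 there and was not called, and *HDAC1* fell by 0.81.

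Of 13 measured transcription regulators that the study itself listed for this comparison, 8 rose and 1 fell. Since the study picked that list from these arrays, the count is no independent evidence. Beside *Taf3*, *Bap60* and *crc*, the risers were *E(spl)m7-HLH*, *Sox15*, *Med*, *crp* and *bigmax*, and the one that fell was *Ets21C*. The probes of *lola* (15, with a mean of 0.11) and of *mod(mdg4)* (21, with a mean of 0.34), 2 genes with many splice forms, ranged from -0.45 to 0.66 and from 0.01 to 0.80. Averaged over probes neither was called. A further 14 genes were named by the study for C24→C72, and 3 of these rose and 8 fell, with the same reserve.

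Each signalling list here held at most a few called genes, and their shares stand against 2.94% of all genes called. The E(spl) complex and the Bearded family encode the main Notch targets, bHLH repressors and small Bearded-type proteins. Of 13 measured genes 1 (7.69%) rose, *E(spl)m7-HLH*, with 1.20, 0.57, 0.61 and 0.68 (0.76, adjusted p = 0.018). *E(spl)m3-HLH* had nearly the same mean (0.78) but a wider spread over the 3 comparisons and missed the threshold (adjusted p = 0.094). *E(spl)m6-BFM* (-0.41) and *Tom* (-0.34) lay below 0 on all 4 arrays, short of the fold threshold. *E(spl)m8-HLH* and *E(spl)mgamma-HLH* were not among the genes measured. None of 12 measured genes of the Notch pathway core was called (3 at an unadjusted p under 0.05). The receptor gene *N* itself, *Ser* and *Su(H)* were not measured, so nothing can be said about them. *Psn*, the catalytic subunit of gamma-secretase, was just short of 1.5-fold (0.57, adjusted p = 0.0085). Of 25 measured genes of the Dpp and activin pathway 1 rose and 2 fell (12%), the latter being *tld* and *tok*. The riser *Med*, the common Smad that carries the signal to the nucleus, rose by 0.71 with 4 ratios between 0.59 and 0.82. *Dad*, an inhibitory Smad and target of the pathway, gave 0.51 (adjusted p = 0.039), below the fold threshold. *sty*, the feedback inhibitor of receptor tyrosine kinases, rose by 0.62 (adjusted p = 0.0082) as the only called gene of 14 in the EGFR pathway (7.14%). *Sox15*, listed with the Wnt pathway, rose by 0.72 as the only called gene of 9 measured there (11.1%). No gene was called among 9 of the JAK/STAT pathway, 15 of the Hippo pathway, 16 of the Hedgehog pathway and the compartments, and 23 that pattern the pouch, hinge and notum, where 2, 6, 4 and 7 genes had an unadjusted p under 0.05. Among the last, *nub* and *pdm2*, markers of the wing pouch, gave -0.31 (adjusted p = 0.068) and -0.40 (adjusted p = 0.023). The value of *pdm2* was the lowest of these 23 genes, of which 10 lay above 0, and their median was -0.05.

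**Figure D4:**
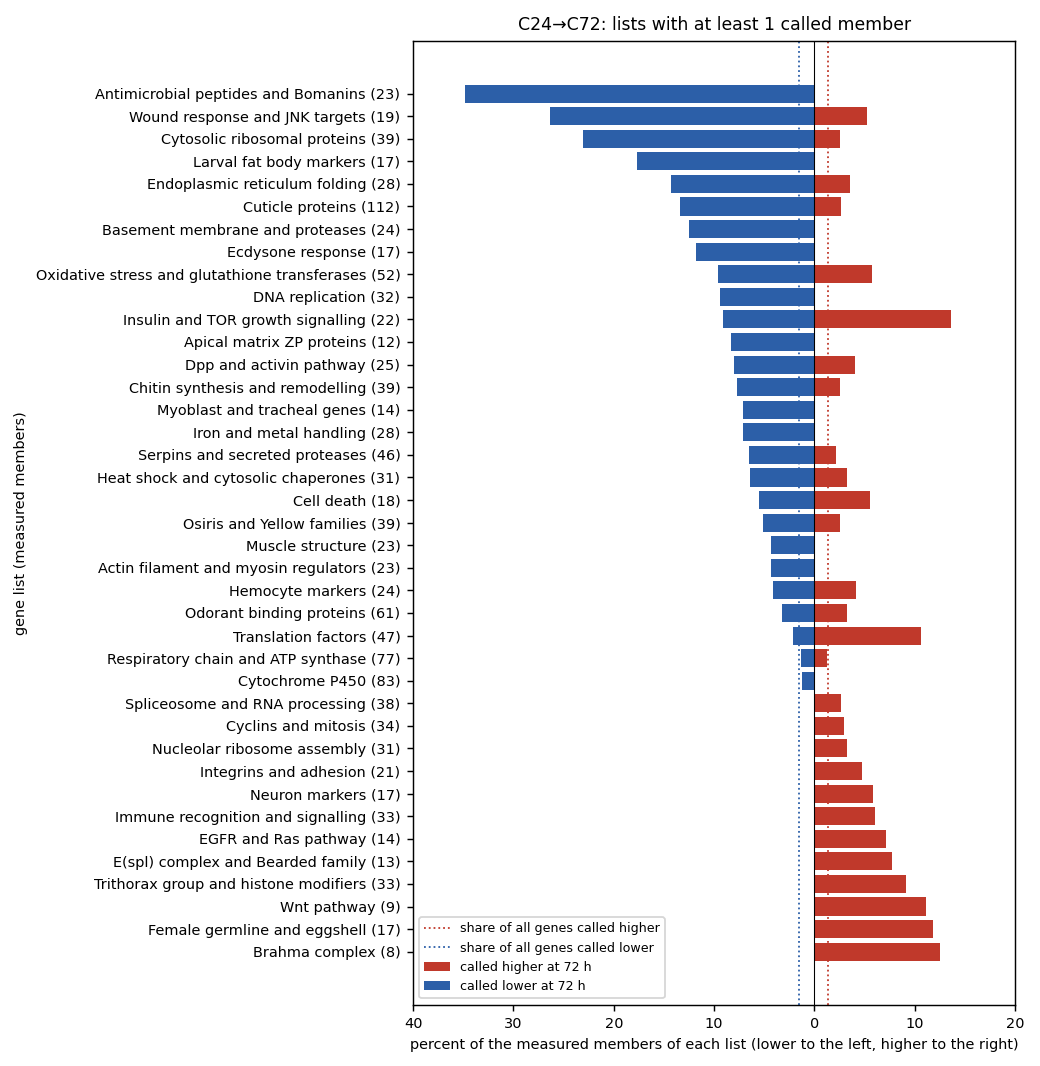
Percent of the measured members (number in brackets, y axis) of each gene list called lower (blue, left) or higher (red, right) in C24→C72 (x axis), for the 39 topic lists with at least 1 called gene. Dotted lines mark the share of all genes, 1.58% lower and 1.36% higher. Antimicrobial peptides, wound response genes and cytosolic ribosomal proteins reach furthest to the left.

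Growth and cell cycle genes changed in parts. In insulin and TOR signalling 3 of 22 genes rose and 2 fell, a share of 22.7% against 2.94% of all genes. The risers were *gig* (0.62), the TSC2 brake on TOR, *bigmax* (0.66), the partner of the sugar sensor Mondo, and *REPTOR-BP* (0.71). The last encodes the binding partner of REPTOR, a factor held back by TOR. All 3 risers had also risen in uncut discs in the first day, *REPTOR-BP* by 1.78. The other two were *scyl* and *ImpL2*, a secreted antagonist of insulin-like peptides, which gave -0.71 and -0.48 in replicate 1 and -1.52 and -1.04 in replicate 2 (-0.94, adjusted p = 0.025). DNA replication genes had a median of -0.19, and 3 of 32 (9.38%) fell with none higher, against 1.58% of all genes lower. *PCNA*, the sliding clamp of DNA polymerase, gave -0.72, -0.42, -0.95 and -0.92 (-0.75, adjusted p = 0.0083), *dnk*, a deoxynucleoside kinase, fell by 0.73 and *RPA3*, a subunit of the single-strand binding protein, by 0.62. *PCNA* and *dnk* had fallen by 1.06 and 0.94 in uncut discs in the first day. Of 34 genes of cyclins and mitosis only *feo* was called, a share of 2.94% and thus the same as that of all genes. *feo* bundles microtubules of the central spindle and rose by 0.80 (adjusted p = 0.0066).

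Some chaperones of the secretory pathway and small heat shock proteins fell. The list for folding in the endoplasmic reticulum also holds regulators of its stress response. Of 28 measured genes 4 folding factors fell (17.9% of the list called, against 2.94% of all genes), and the 1 that rose was *crc*, the transcription factor counted above. *Hsc70-3*, the fly BiP, gave -1.11, -0.65, -0.75 and -0.78 (-0.82, adjusted p = 0.0056), *Fkbp14*, a prolyl isomerase, fell by 0.97, and the disulphide isomerase family members *wbl* and *CaBP1* by 0.65 and 0.62. They had all fallen in the first day too, *wbl* by 3.16 and *Fkbp14* by 2.38 in uncut discs. Among cytosolic chaperones *Hsp27* fell 2.80-fold, with -1.60, -1.16, -1.63 and -1.55 (adjusted p = 0.00027). Its neighbour *Hsp26* fell by 1.05 with -0.39 on both arrays of replicate 1 and -1.75 and -1.68 in replicate 2, so that the call (adjusted p = 0.032) was lost when replicate 2 was left out. *Hsc70-4*, the constitutive cytosolic Hsp70, rose by 0.80 (adjusted p = 0.0029). In oxidative stress and glutathione conjugation 5 of 52 genes fell and 3 rose, a share of 15.4% against 2.94% of all genes. The falls were led by *GstE6* with -1.94, -1.32, -1.61 and -1.30 (-1.54, adjusted p = 0.0018) and *GstD3* (-0.96, adjusted p = 0.00096). Related glutathione transferases may share signal on these probes.

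Several of the largest changes fell outside these groups. *CG33178* rose most, by 4.16 and 3.22 in replicate 1 and by 3.32 and 3.45 in replicate 2 (3.54 ± 0.29, adjusted p = 0.00042), an 11.6-fold rise. Over the first day its log2 ratio was 1.58 in uncut and 0.79 in cut discs. The cut replicates disagreed there, at 1.585 and 0, and the gene was not called in cut discs. *CG18735* (1.99), *CG13053* (1.72) and *CG13258* (1.65) followed, of which *CG18735* was higher in replicate 2, at 2.93 and 2.44, than in replicate 1, at 1.31 and 1.29. *EbpIII*, named for the male ejaculatory bulb in which its protein was found, rose by 1.21 (adjusted p = 0.0018). Among falls, *Ance*, a secreted peptidase related to mammalian angiotensin-converting enzyme, gave -3.79, -2.83, -2.85 and -2.95 (-3.10 ± 0.13, adjusted p = 1.7e-05), and it had fallen already by 1.51 in uncut and 2.06 in cut discs. *CG1368* (-2.77) and *CG8483* (-2.55) fell with the smallest adjusted p of all genes (1.3e-05), after a rise of 2.64 and 1.07 in uncut discs. *Spn42Dd*, a serpin protease inhibitor, rose by 1.09 after a fall of 0.95 in uncut discs, whereas the serpin *Spn43Aa* fell by 1.26 and had fallen before (-1.62). *Obp99c*, of the odorant binding family of small secreted carriers, fell by 1.03 (adjusted p = 0.0068).

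The genes called in C24→C72 were also set against uncut discs in their first day. Both comparisons come from the same fit and share its spread for each gene. Of the 164 genes that rose, 82 (50%) had also risen in NC0→NC24, against 5.14% of all genes, and 3 (1.83%) had fallen there, against 3.85%. Of the 190 that fell, 48 (25.3%) had risen in NC0→NC24 and 41 (21.6%) had fallen. *Edg78E*, *Edg84A*, *Cpr65Ec*, *Drs*, *Def*, *Gadd45*, *ple* and *Col4a1* belong to the first of these sets, and *Ance*, *tld*, *tok*, *Hsp27*, *Hsc70-3* and *wbl* to the second. The median change of the risers in NC0→NC24 was 0.58 and that of the fallers 0.04. The change itself differed between C24→C72 and NC0→NC24 for 862 genes, 325 higher (2.7%) and 537 lower (4.45%) in C24→C72. This contrast differs in both the cut and the period, which cannot be told apart. Without replicate 1 of NC0→NC24 it called 77 genes higher and 226 lower, and without replicate 2 185 and 373.

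For a few called genes the dye orders disagreed. The dye half-difference exceeded the change in 3 called genes, and a dye term was past an adjusted p of 0.05 for 0 of 12058 genes in a limma fit of the 4 arrays (1357 at an unadjusted p under 0.05). *CG31913* gave 2.19 and 1.13 on the arrays with the 72-hour sample in Cy5 and -0.29 and 0.02 in Cy3. *CG12869* gave -1.08 and -1.48 against 0.07 and -0.03, and *mei-P26* -0.81 and -2.62 against 0.28 and -0.14. Each call of these 3 genes rests on a single dye order. *RpL28*, counted above among the ribosomal proteins that fell, gave -0.97 and -1.74 in Cy5 and -0.40 and -0.06 in Cy3.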

How the data were processed

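Amplified RNA of cut discs recovered 24 or 72 hours after implantation was labelled with Cy3 and Cy5 and hybridized to printed oligonucleotide arrays in biological replicate pairs with dye swaps. The deposited values are log2 ratios that the authors had normalized with the mad method of OLIN from GenePix scans, separately for every 4 arrays of a comparison, and they analysed them with limma (version not given in the sources used here). Base and direction of the ratios are not stated in the table. Arrays of opposite dye order correlate positively, so the ratios were taken as turned to later over earlier time. Signal intensities were not used here, and the precision is limited by how few arrays there are.

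Of 16416 features, 13164 carry 1 gene symbol, 101 several and 3151 none. Features were joined to genes by their identifiers in the platform annotation, and symbols were updated by gene identifier (12533), by accession (120) or kept (511), which gave 12058 genes. Probes of a gene were averaged (757 genes), then the 2 dye-swapped arrays of a replicate. The 6 replicate means entered 1 limma fit (limma 3.58.1, R 4.3.3) with 3 groups and 3 residual degrees of freedom, to which moderation added 5.64. Genes were called at an adjusted p (Benjamini-Hochberg) under 0.05 and 1.5-fold. According to the methods of the study RNA was extracted independently at least 2 times. The p-values and SE rest on the spread between replicates pooled over the 3 comparisons and moderated across genes. They do not measure the spread of the 2 replicates of C24→C72 alone. Gene lists (53) were counted and not tested. The samples, lists and rules were chosen with earlier results of these data known, and the lists were corrected for wrong members afterwards. Genes in the text are those with the 15 largest rises and falls of the same sign on all 4 arrays, up to 5 of each list by adjusted p, the lists of the study, the 5 called genes with the largest dye difference and 10 by their difference to NC0→NC24. *Edg91*, *Cpr57A*, *RpL24-like*, *RpL22-like*, *eIF3b*, *Yp1* and *Yp2* were named outside this rule after their values were seen. The steps were tested on simulated data. Alternatives concerned the fold threshold, the samples and unit of the fit, dye, variance, centring, scaling, probes, a replicate block and left-out replicates, and, added after seeing the data, left-out arrays.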

Additional observations from a re-analysis of the deposited data

Results flagged for a closer look

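For 9 of the 124 genes described (7.26%), 1 of the 4 arrays of C24→C72 stood apart from the others by Dixon's gap criterion, which chance meets in about 1 of 20 groups. In 3 of them the array lay far out. *RpL22-like* had 5.19 on the array of replicate 2 with the 72-hour sample in Cy5 and at most 0.20 on the others, so that its mean of 1.20 missed the threshold (adjusted p = 0.10). On the same array *dpp*, the main BMP-type ligand of the disc, had 3.59 against at most -0.02 elsewhere (mean 0.78, adjusted p = 0.18), and *Sumo*, the ubiquitin-like modifier, had 3.36 against 0.32, 0.51 and 0.35. *Sumo* was called higher (1.14, adjusted p = 0.03), and the call rests on that array, without which the mean was 0.38. The gap was under 1 log2 unit in the rest. It was met by *Ance* (-3.79 in replicate 1 with 72 hours in Cy5, against -2.95 to -2.83), *CG17698* (-2.04 in replicate 1 with 72 hours in Cy5), *Hsp27* (-1.16 in replicate 1 with 72 hours in Cy3), *Psn* (0.65 in replicate 2 with 72 hours in Cy5), *crq* (-0.17 in replicate 1 with 72 hours in Cy3) and *bin* (-0.155 in replicate 2 with 72 hours in Cy3).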

How the results depend on the processing

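The counts of C24→C72 depended most on the threshold, the unit of the fit and the dye order. A 2-fold threshold gave 24 genes higher and 43 lower, adjusted p alone 646 and 450, limma's treat at 1.5-fold 7 and 25, and C24→C72 fitted alone 7 and 20 on its replicate means, 145 and 170 on its arrays, and 149 and 184 on its arrays with a dye term. The arrays with dye-swap A, which have the 72-hour sample in Cy5, gave 429 and 367, and those with dye-swap B 81 and 61. Of the genes called by both dye orders together, 39 higher and 45 lower were also called by dye-swap B alone. Leaving out a replicate gave 151 to 292 higher and 174 to 216 lower. For the difference to NC0→NC24 the corresponding counts were 56 higher and 217 lower at 2-fold, 547 higher by adjusted p alone, 14 and 105 with treat, 894 higher with dye-swap A, 21 and 77 with dye-swap B, and 77 to 444 higher and 226 to 567 lower with a replicate left out. Under dye-swap B alone *CG12869* (0.02), *CG31913* (-0.14) and *mei-P26* (0.07) changed sign. The cause of these shifts was not tested, except that treat and 2-fold are stricter by construction. The other alternatives, among them centring, scaling, a dye term, robust moderation and each array left out (157 to 224 higher, 151 to 240 lower), stayed within 1.5 times the counts. Across genes, the deviations of same-numbered replicates correlated at -0.08 between C24→C72 and C0→C24 and at 0.02 between C24→C72 and NC0→NC24. Between C0→C24 and NC0→NC24 the correlation was -0.12. These values cannot settle whether same-numbered replicates of cut discs share their 24-hour RNA. A replicate block gave 168 and 189 genes in C24→C72 and 316 and 510 in the difference. Of the 99 called genes described, 12 kept their call under every alternative, among them *Edg78E*, *Cpr65Ec*, *Edg84A*, *Def*, *Hsp27*, *Ance*, *Cpr76Bc* and *Nap1*. *Sumo*, *mei-P26*, *Lcp65Ag3*, *Hsp26*, *Osi3* and *Ets21C* lost it under 10 to 16 of 22. Signal over background is unknown, and 2 replicates limit all counts.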

Other observations

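Features without a single gene symbol, 3252 of the 16416, were left out of the results above. Fitted as features, 123 of them were called higher and 191 lower in C24→C72, 9.66%, against 2.93% of the 13164 features with a gene. Their genes are not named here, and control spots may be among them.

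A gene whose value on 1 array lay over 2 log2 units outside the range of the other 3 was found 16 times in C24→C72. The array of replicate 2 with the 72-hour sample in Cy3 held 8 of these, the other array of replicate 2 held 4, and the arrays of replicate 1 held 4 and 0. Only 1 of the 16, *Sumo*, was called.

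The called genes were placed by position. By their order in the RefSeq annotation, 8 of 158 placed risers (5.06%) and 14 of 188 placed fallers (7.45%) lay beside another gene called in the same direction. Of all 11575 placed genes, 2.68% lay beside a gene called higher and 3.2% beside one called lower. No run was longer than 2 genes. The pairs included *CG13053* with *CG13054* among risers, and *tld* with *tok* and *Hsp26* with *Hsp27* among fallers.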
